A study of Homo sapiens with 4 samples.

Results

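The genes described here mark the gastric epithelial lineage: CLDN18, VSIG1, CTSE, ANXA10, PSCA, GATA4, GATA6, SOX2, LYZ and CAPN8. They were taken by symbol from the table of array values, with the probe set of the highest mean used for each gene. Of the 10 genes, 9 had a row that named them alone, out of 18417 genes with such a row, and each of the 9 had 1 probe set. CAPN8, a calpain protease of gastric surface mucous cells, had no such row and was not analysed here.

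The gastric epithelium is laid down by foregut transcription factors. GATA4 and GATA6 are zinc finger activators of gut endoderm that bind the sequence GATA, and SOX2 marks the stomach and oesophagus within the foregut. Surface mucous and gland cells then make products by which pathologists recognise stomach-type tumours, among them the tight junction protein claudin 18, the adhesion protein VSIG1, cathepsin E and annexin A10. Lysozyme and prostate stem cell antigen are also made by gastric epithelium, and lysozyme is in addition an abundant product of macrophages.

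RNA came from SNU-16, an established human gastric carcinoma cell line, after orthotopic growth in BalB/c nude mice, which lack T cells. The groups were cells from metastases in the ovary after the second and after the first round of implantation, and from tumours in the stomach wall after the second and after the first round, with 1 array for each. Per the labels' protocols the RNA was that of cell pellets, so the values need not be those of the tumours in place. Per the design text, recovered cells were cultured between the rounds, and the second round of each site started from cells of the same site in the first round. Both sites therefore hold 2 arrays of 1 lineage of 1 cell line, their spread is that between successive passages and may be partly technical, and neither cells that were never implanted nor separate animals were analysed here.

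Values are log2 expression per probe set. The 4 arrays had medians between 6.80 and 6.84, and with so few arrays every value is of limited precision. Tested genes were the 14547 with a mean above 5.64, which is the 30th percentile of the row means and is called the signal minimum here. For both round 2 samples a free-text description contradicts the title as to the organ. The titles were followed. For the genes of the group, the values under an exchange of these samples are given where they bear on a result. For other single genes they are not given. Differences between sites (ovary minus stomach) and between rounds (2 minus 1) are in log2 units, with the standard error of the limma fit, and a level is a mean ± SD with n = 2 arrays. Levels of different genes are not compared, because each probe set has its own response.

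CLDN18 was expressed just above the signal minimum on all 4 arrays. The gene has a start used in lung and, downstream, a start used in stomach, and the stomach isoform is the target of antibodies against gastric cancer. A single probe set (8082928) reads the gene, so the isoforms cannot be told apart in these values. The 250 bases before each start are shown because they are where the lung and the stomach isoform part, and because 2 other genes of the group, GATA4 and GATA6, encode factors that bind GATA sequences. The sequences are from RefSeq on GRCh38.p14, plus strand, at chr3:137998566-137998815 and chr3:138009915-138010164. Capitals mark matches, on either strand, to the letters GATA with A or T before them and A or G after them.
CLDN18, upstream start: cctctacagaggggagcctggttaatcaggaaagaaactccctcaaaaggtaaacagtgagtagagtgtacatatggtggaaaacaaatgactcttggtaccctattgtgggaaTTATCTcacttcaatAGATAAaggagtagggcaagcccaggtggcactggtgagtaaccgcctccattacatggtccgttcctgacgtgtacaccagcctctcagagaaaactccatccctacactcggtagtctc
CLDN18, downstream start: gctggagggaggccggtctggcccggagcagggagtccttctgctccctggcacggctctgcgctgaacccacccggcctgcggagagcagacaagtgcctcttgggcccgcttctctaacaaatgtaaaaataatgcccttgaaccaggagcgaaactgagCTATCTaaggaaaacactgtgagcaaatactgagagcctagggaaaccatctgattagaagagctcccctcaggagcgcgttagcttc
The upstream window held 2 matches and the downstream window 1. Of the 10 genes, 6 had a promoter in the RefSeq table (CLDN18 with its 2 starts, CTSE, CAPN8, SOX2, ANXA10 and GATA6), and 3 of the 6, namely CLDN18, CTSE and ANXA10, had at least 1 match. Counted by window, 4 of these 7 held a match, beside 22.3% of all 35116 promoter windows of this length in the table. A match is thus a common feature and is given as a description of the letters.

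The junction and surface proteins come first. CLDN18 stood at 5.98 in round 2 and 6.30 in round 1 of the ovary lineage, against 6.18 in round 2 and 6.29 in round 1 of the stomach lineage. Both round 2 arrays were below both round 1 arrays, and the sites overlapped. The mean was 6.08 ± 0.14 in round 2 and 6.29 ± 0.011 in round 1, a difference of -0.21 ± 0.093 that did not pass the test (limma adjusted p = 0.368). In the order of the arrays the 2 round 1 values were 0.016 apart, which is less than the 0.14 that the fit with a block gives as the standard error of a difference between 2 arrays. The gap of 0.11 that separated the rounds was also under this standard error. The lowest array, ovary in round 2, was 0.19 below the next. Between sites the difference was -0.089 ± 0.14, made of -0.19 in round 2 and 0.016 in round 1.

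PSCA, a small glycoprotein anchored to the cell surface by a lipid (probe set 8148548, chromosome 8), was the tested gene of the group that separated the sites. It stood at 7.33 in round 2 and 7.19 in round 1 of the ovary lineage, against 7.78 in round 2 and 7.56 in round 1 of the stomach lineage. Both ovary arrays were below both stomach arrays. The site means were 7.26 ± 0.096 in ovary and 7.67 ± 0.16 in stomach, with a difference of -0.40 ± 0.12, or 1.32-fold lower in ovary. The difference was close in the rounds, at -0.45 in round 2 and -0.36 in round 1. It did not pass the test across all genes (limma adjusted p = 1.00, unadjusted p = 0.0226).

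PSCA was 1 of the 6 tested members with both ovary arrays below both stomach arrays, and 11.2% of all tested genes had this pattern. It was higher in round 2 at both sites, by 0.14 in ovary and 0.22 in stomach (0.18 ± 0.20 in the fit). In order from the highest array, the gaps were 0.22, 0.23 and 0.14, each above the standard error of 0.12 for a difference between 2 arrays. With the round 2 samples exchanged the site difference of PSCA was 0.042, so the separation rests on the titles. The exact permutation test over 2 against 2 arrays cannot give a two-sided p under 0.333.

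VSIG1 (probe set 8169263), a junctional adhesion protein of the gastric mucosa, was under the signal minimum on all 4 arrays. It was listed at 5.36 in round 2 and 4.93 in round 1 of the ovary lineage, against 5.08 on both stomach arrays. The stomach values were identical to the last digit of the deposited table. Equal values on some pair of arrays occurred in 24.8% of the rows under the signal minimum and in 10.0% of the rows over it.

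**Figure D1:**
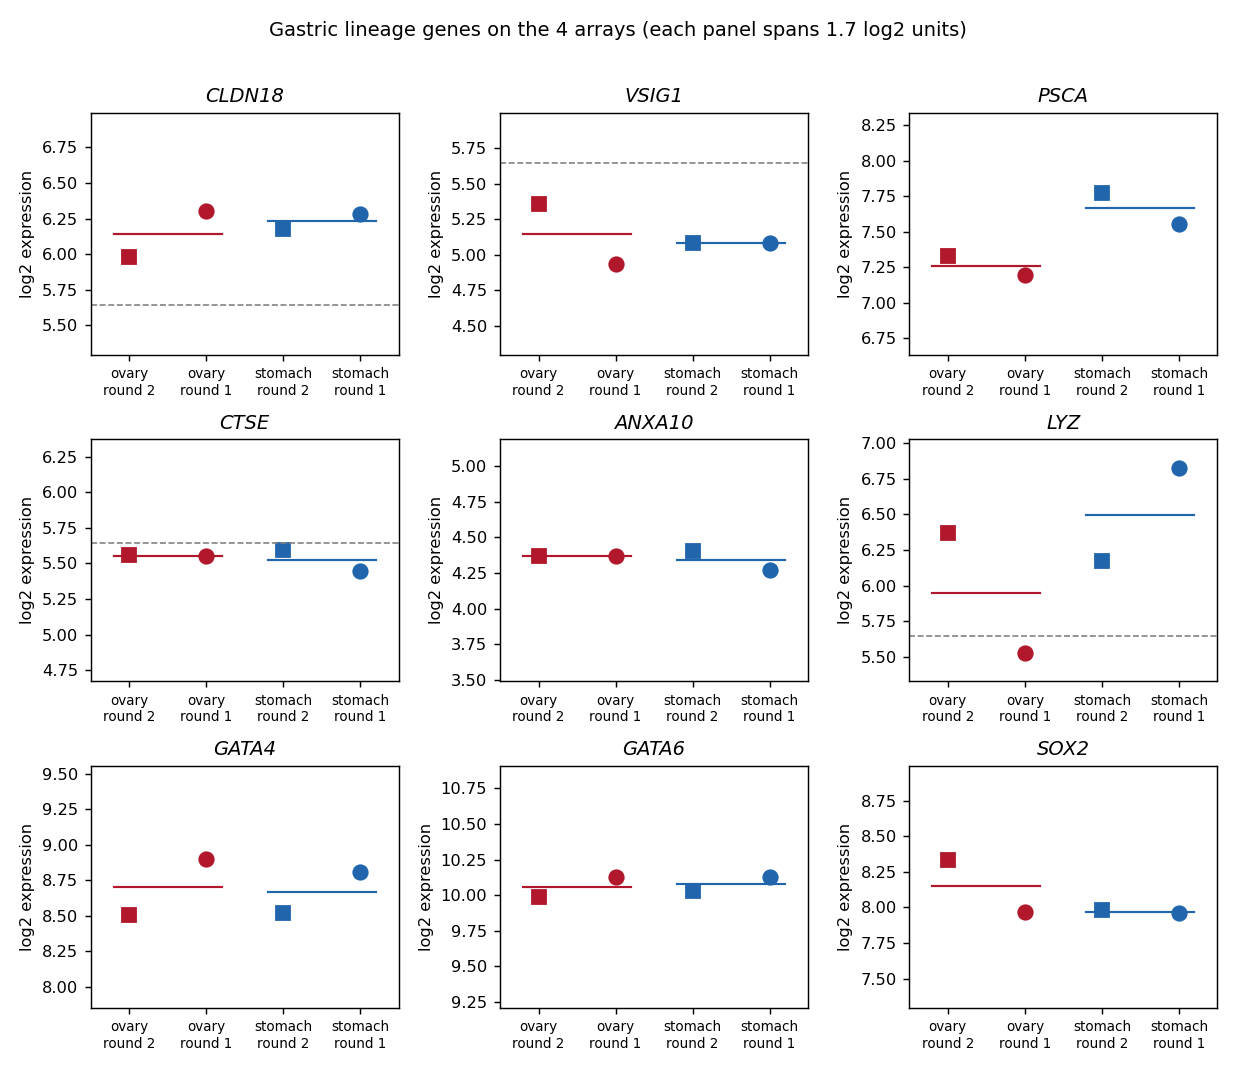
The plot of the 9 measured genes shows log2 expression on the vertical axis for each array (squares, round 2; circles, round 1; red, ovary; blue, stomach), with bars at the site means, a dashed line at the signal minimum of 5.64 where it falls in the panel, and the same span of 1.7 log2 units in every panel. LYZ spans the widest range, PSCA is lower on both ovary arrays, and GATA4 is lower on both round 2 arrays.

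Among enzymes and secreted products, CTSE and ANXA10 gave no signal over the minimum. CTSE, an intracellular aspartic protease of surface mucous cells (probe set 7909164), stood at 5.56 in round 2 and 5.55 in round 1 of the ovary lineage, against 5.60 in round 2 and 5.45 in round 1 of the stomach lineage. ANXA10, a calcium-dependent phospholipid-binding protein (probe set 8098246), stood at 4.37 on both ovary arrays, against 4.40 in round 2 and 4.27 in round 1 of the stomach lineage. All 4 arrays lay within 0.15 of each other for CTSE and within 0.13 for ANXA10. Neither gene was tested, and a level under the minimum does not show that a transcript is absent.

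LYZ (probe set 7957023), which encodes lysozyme, the enzyme that cleaves bacterial cell walls, varied more than any other measured gene of the group. It stood at 6.37 in round 2 and 5.53 in round 1 of the ovary lineage, against 6.17 in round 2 and 6.83 in round 1 of the stomach lineage. The round 1 ovary array was the lowest, under the signal minimum, and the round 1 stomach array was the highest, with both round 2 arrays between them. The range of 1.30 was wider than that of 99.3% of all tested genes. LYZ was also the 1 tested member with at least a 2-fold difference between any 2 arrays, which 1.55% of all tested genes had.

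The site difference of LYZ had opposite signs in the rounds, 0.20 in round 2 and -1.30 in round 1. Its mean over the rounds was -0.55 ± 0.36 (limma adjusted p = 1.00), the site means being 5.95 ± 0.59 for ovary and 6.50 ± 0.46 for stomach. The round change was 0.84 in the ovary lineage and -0.66 in the stomach lineage. The interaction of site and round, coded as the mean of the round 2 ovary and round 1 stomach arrays minus the mean of the round 1 ovary and round 2 stomach arrays, was 0.75 ± 0.28 and did not pass the test (limma adjusted p = 1.00, unadjusted p = 0.0462). An unadjusted p under 0.05 for the interaction was found in 1.33% of all tested genes. Leaving out the round 1 ovary array made the site difference -0.13, and leaving out the round 2 ovary array made it -0.97. With the round 2 samples exchanged, the site difference of LYZ was -0.75, which is the interaction with its sign reversed. Both ovary arrays would then be below both stomach arrays, so the overlap of the sites rests on the titles.

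Markers of leukocytes, which also make lysozyme, were read beside it. Of 11 such genes, all were measured, and 4 of them (PTPRC, FCER1G, AIF1 and CYBB) had a mean under the signal minimum. The summed log2 level of the 11 was 67.0 in round 2 and 66.9 in round 1 of the ovary lineage, against 67.4 in round 2 and 68.3 in round 1 of the stomach lineage. Of the 7 tested, 7 were lower in ovary, with a median difference of -0.068 beside 0.0016 over all tested genes, and 0 passed the test. Both ovary arrays were below both stomach arrays for 4 of the 7 (LAPTM5, TYROBP, CD68 and CD53), a pattern held by 11.2% of all tested genes. CD68, a lysosomal protein of macrophages that other cells also make, stood at 9.74 in round 2 and 9.47 in round 1 of the ovary lineage, against 9.89 on both stomach arrays. CD53, a leukocyte tetraspanin, differed between sites by -0.12 ± 0.10 and LAPTM5, a lysosomal protein of leukocytes, by -0.072 ± 0.085. Between rounds, CD14, a receptor for bacterial lipopolysaccharide, differed by -0.22 ± 0.076 and CSF1R, a growth factor receptor of macrophages, by -0.16 ± 0.081. The hosts were mice, while the probe sets are named by human genes. Cells of the host would thus be read only where mouse RNA binds these probe sets. Fewer cells of a type and less RNA per cell cannot be told apart in bulk samples, and the part of such cells in the LYZ values was not tested.

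By the smallest root mean square distance between profiles centred on their means over the 4 arrays, the tested genes most like LYZ were FFAR2 (0.055), NDRG2 (0.12) and FSCN1 (0.16). The median distance over all tested genes was 0.47. FFAR2 encodes a receptor for short-chain fatty acids. It stood at 7.21 in round 2 and 6.35 in round 1 of the ovary lineage, against 6.91 in round 2 and 7.53 in round 1 of the stomach lineage. NDRG2, a cytoplasmic protein of the NDRG family, and FSCN1, the actin-bundling protein fascin, had the same lowest and highest arrays as LYZ. They were picked for their likeness on these 4 arrays, so the match is a description.

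**Figure D2:**
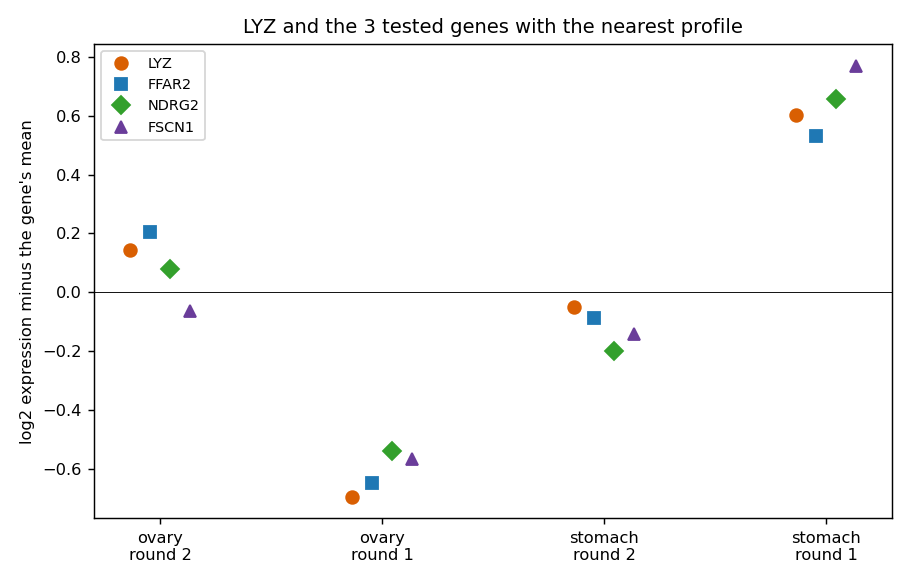
The plot of nearest profiles shows log2 expression minus the mean of the gene on the vertical axis for LYZ, FFAR2, NDRG2 and FSCN1 on the 4 arrays. All 4 genes are lowest on the round 1 ovary array and highest on the round 1 stomach array.

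The transcription factors of the group were well above the signal minimum on all arrays. GATA4 (probe set 8144643, chromosome 8) stood at 8.51 in round 2 and 8.90 in round 1 of the ovary lineage, against 8.52 in round 2 and 8.81 in round 1 of the stomach lineage. Both round 2 arrays were below both round 1 arrays. The level was 8.51 ± 0.0085 in round 2 and 8.86 ± 0.064 in round 1, a difference of -0.34 ± 0.074, or 1.27-fold lower in round 2, with -0.39 in the ovary lineage and -0.29 in the stomach lineage. It did not pass the test across all genes (limma adjusted p = 0.287, unadjusted p = 0.00701). An unadjusted p under 0.05 between the rounds was found in 15% of all tested genes.

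Within a round the sites differed for GATA4 by -0.012 in round 2 and 0.091 in round 1, both under the standard error of 0.13 for a difference between 2 arrays. The site difference was 0.039 ± 0.18. GATA4 is also expressed in granulosa cells of the ovary, so ovarian markers were read beside it. Of 13 markers of granulosa, theca and follicle cells, 5 (CYP11A1, CYP17A1, CYP19A1, FSHR and LHCGR) had a mean under the signal minimum. Of the 8 tested, 6 were higher in ovary with a median difference of 0.042, and 7 were lower in round 2 with a median difference of -0.17, beside -0.019 over all tested genes. The summed log2 level of all 13, those under the signal minimum included, was 78.4 in round 2 and 79.4 in round 1 of the ovary lineage. It was 77.7 in round 2 and 79.9 in round 1 of the stomach lineage. FOXL2, a transcription factor of granulosa cells, differed between rounds by -0.30 ± 0.075. ZP3, a protein of the egg coat, differed between rounds by -0.63 ± 0.069, and INHBA, a subunit of activin, by -0.30 ± 0.19. Between sites INHBA differed by 0.23 ± 0.21, INHA, a subunit of inhibin, by 0.12 ± 0.12 and AMHR2, the receptor of anti-Müllerian hormone, by -0.093 ± 0.088. INHBA stood at 5.97 on both ovary arrays, against 5.44 in round 2 and 6.04 in round 1 of the stomach lineage. Its round 2 stomach value was under the signal minimum, and both INHBA differences rest on that array. Ovarian cells of the host would be mouse cells, with the same limit as for leukocytes. None of these genes passed the test, and the part of such cells in the GATA4 values was not tested.

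GATA6 (probe set 8020455) had the narrowest range of the tested members. It stood at 9.99 in round 2 and 10.13 in round 1 of the ovary lineage, against 10.03 in round 2 and 10.13 in round 1 of the stomach lineage. Both round 2 arrays were below both round 1 arrays, but every gap between neighbours in the order was under the standard error of 0.12 for a difference between 2 arrays. The round difference was -0.12 ± 0.069 (limma adjusted p = 0.446) and the site difference -0.022 ± 0.10. Only 19.4% of all tested genes had a narrower range than its 0.14.

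SOX2 (probe set 8084165) was highest on the round 2 ovary array. It stood at 8.33 in round 2 and 7.97 in round 1 of the ovary lineage, against 7.98 in round 2 and 7.96 in round 1 of the stomach lineage. The other 3 arrays lay within 0.023 of each other, and the gap of 0.35 above them exceeded the standard error of 0.16 for a difference between 2 arrays. The round difference was 0.19 ± 0.13 (limma adjusted p = 0.512), made of 0.36 in the ovary lineage and 0.023 in the stomach lineage. The site difference was 0.18 ± 0.15 (limma adjusted p = 1.00), and the interaction was 0.17 ± 0.15 (limma adjusted p = 1.00). Leaving out the round 2 ovary array made the site difference -0.0020, so it rests on 1 array.

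**Figure D3:**
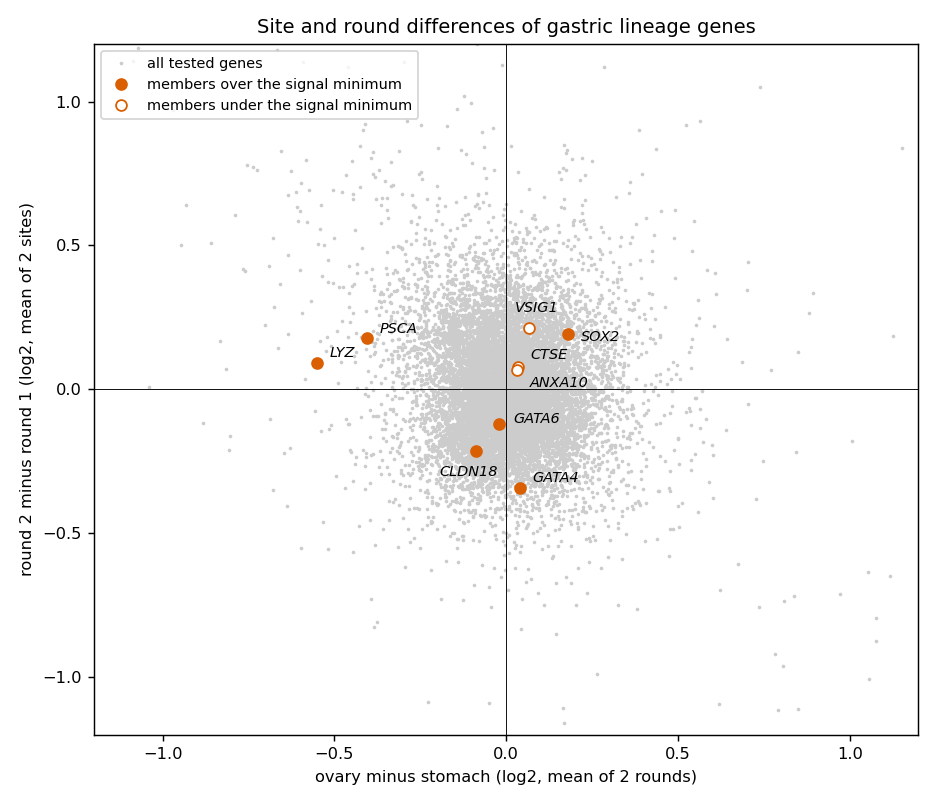
The scatter plot shows ovary minus stomach on the horizontal axis and round 2 minus round 1 on the vertical axis, both in log2 units, for all tested genes (grey) and the 9 measured genes of the group (filled where over the signal minimum, open where under it), with 20 genes outside the plotted range of 1.2 log2 units. LYZ and PSCA lie to the left, at -0.55 and -0.40, and GATA4 lies lowest, at -0.34.

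Over the 6 tested members, none passed in any comparison. Limma called 0% of all 14547 tested genes between sites, 0% between rounds and 0% for the interaction at an adjusted p under 0.05, and at an unadjusted p under 0.05 it found 378 (2.6%), 2178 (15%) and 194 (1.33%) genes. With a replicate block the unadjusted shares were 6.3% between sites and 16.2% between rounds, and 0% passed after adjustment. Between sites, 4 of the 6 were lower in ovary (CLDN18, PSCA, LYZ and GATA6) and 2 higher (GATA4 and SOX2), with a median of -0.055, while 49.3% of all tested genes were lower. The site difference had the same sign in both rounds for 3 of the 6: PSCA, GATA6 and SOX2. In round 1 it was only -0.0036 for GATA6 and 0.0093 for SOX2. Between rounds, 3 were lower in round 2 (CLDN18, GATA4 and GATA6) and 3 higher (PSCA, LYZ and SOX2), with a median of -0.014, while 54.5% of all tested genes were lower. The round difference had the same sign at both sites for 5 of the 6, LYZ being the exception. How many of all tested genes keep their sign in this way was not counted for either comparison.

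The arrays of the rounds did not overlap in 4 of the 6 tested members. These were CLDN18, GATA4 and GATA6, with round 2 below round 1, a pattern held by 26.8% of all tested genes, and SOX2, with round 2 above round 1, held by 22.2%. Only for GATA4 did the gap between the rounds, 0.29, exceed the standard error of a difference between 2 arrays. It was 0.11 for CLDN18, 0.10 for GATA6 and 0.013 for SOX2. Divided by sums of squares, the variation between arrays went with the round by 96.6% for GATA4, 94.9% for GATA6 and 70.9% for CLDN18, against 51.5% over all tested genes. For PSCA the site took 82.9%, against 26.6% over all tested genes. For LYZ the interaction took 64.2%, against 21.9% over all tested genes, and for SOX2 the site, the round and the interaction took 32.8%, 37.8% and 29.5%. The values over all tested genes are shares of sums of squares pooled over genes. They do not tell how often a single gene reaches a share as high, which was not counted. These shares describe 4 arrays and have no test of their own.

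**Figure D4:**
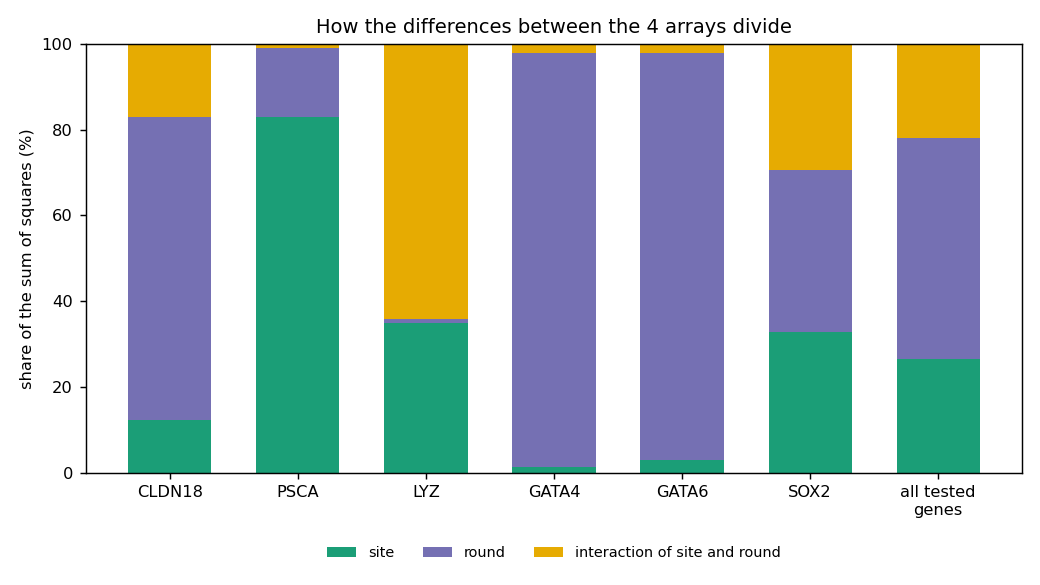
The stacked bars give, for each tested member and for all tested genes pooled, how the squared deviations over the 4 arrays divide, in percent, among site, round and their interaction. The site dominates for PSCA, the round for GATA4, GATA6 and CLDN18, and the interaction for LYZ.

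Other products of gastric surface, pit and neck cells were read as a list of 22 genes, of which 19 had a row and 14 were tested. Of these 14, 12 were lower in ovary and 2 higher, with a median of -0.17, and 11 were higher in round 2 and 3 lower, with a median of 0.12. None passed the test in either comparison, where 0% of all tested genes did. The site median was -0.12 in round 2 and -0.14 in round 1, and both ovary arrays were below both stomach arrays for 5 of the 14, beside 11.2% of all tested genes. The members furthest apart in both comparisons were TFF1, MUC1 and PLAC8. TFF1, a trefoil peptide of surface mucous cells, differed between sites by -0.82 in round 2 and -2.13 in round 1 (-1.48 ± 0.47 in the fit). Between rounds TFF1 differed by 0.74 ± 0.75, made of 1.40 in the ovary lineage and 0.082 in the stomach lineage.

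MUC1, a membrane mucin, differed between sites by -0.29 ± 0.18 and between rounds by 0.31 ± 0.16. It shared with PSCA a lower value in ovary in each round and a higher value in round 2 at each site. TFF1, TFF2, VSIG2, FUT2, PLAC8 and LIPH of the same list also had this pattern, and its other tested genes did not. Among the intestinal genes read below, CDH17, REG4 and HEPH had it too. PLAC8, a small cysteine-rich protein, differed by -0.25 ± 0.15 between sites and 0.25 ± 0.14 between rounds. GKN1 and GKN2, the gastrokines secreted by surface mucous cells, were under the signal minimum, with means of 3.62 and 3.73, as were SULT1C2, ADH7 and A4GNT.

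Products of chief, parietal and endocrine cells had means between 3.40 and 8.58. Of 20 listed genes, 15 had a row and 10 were tested, of which 6 were higher in ovary (median 0.017) and 4 higher in round 2 (median -0.037), with none past the test. LIPF, the gastric lipase of chief cells, had a mean of 3.40, and CBLIF, the intrinsic factor of parietal cells, a mean of 4.91. GAST, which encodes the hormone gastrin, differed by -0.47 ± 0.15 between rounds and -0.23 ± 0.25 between sites. KCNQ1, a potassium channel of parietal cells, differed by -0.27 ± 0.081 between rounds and BHLHA15, a transcription factor of secretory cells, by 0.22 ± 0.094. ATP4B, a subunit of the proton pump, differed by 0.14 ± 0.10 between sites and the gastrin receptor CCKBR by -0.12 ± 0.091.

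Other foregut and gastric transcription factors had medians near 0 in both comparisons. Of 22 listed, 19 had a row and 18 were tested, with 12 lower in ovary (median -0.019) and 10 lower in round 2 (median -0.042), and none passed the test. KLF4, a factor of differentiating epithelium, was highest on the round 2 ovary array, as SOX2 was, at 10.02 there and 9.51 in round 1, against 9.47 in round 2 and 9.37 in round 1 of the stomach lineage. ZFPM1, a cofactor that binds GATA proteins, differed by -0.26 ± 0.14 between rounds and -0.25 ± 0.15 between sites. ONECUT2 differed by -0.26 ± 0.072 between rounds, and the pioneer factor FOXA1 by 0.16 ± 0.10 between sites.

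**Figure D5:**
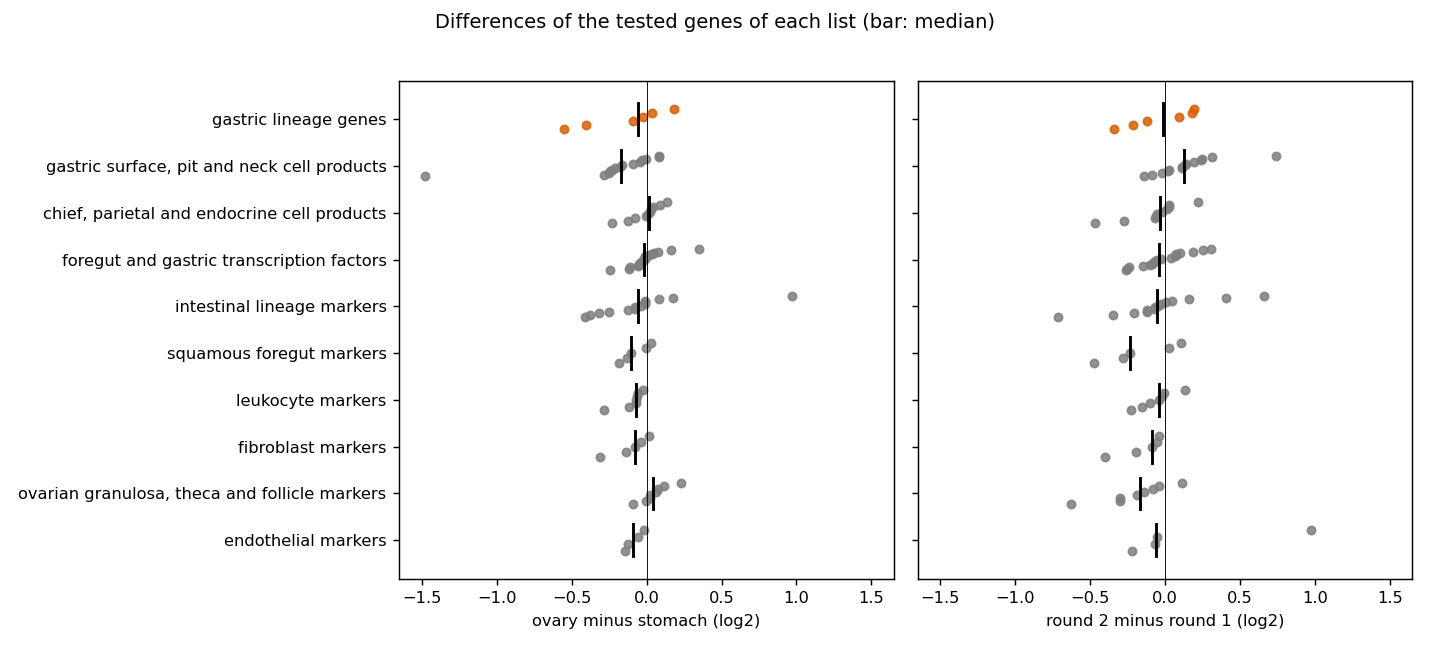
The strip plots show ovary minus stomach (left) and round 2 minus round 1 (right) in log2 units for the tested genes of each list, 1 point a gene, with a bar at the median of each list. Medians lie between -0.17 and 0.042 for the sites and between -0.23 and 0.12 for the rounds, and TFF1 is the point furthest to the left in the plot of sites.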

How the data were processed

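Biotin-labelled total RNA of 4 cell pellets was read on Affymetrix arrays, per the labels' protocols. The authors deposited log2 expression values of each probe set on each array in 1 table. Per the submitters' processing notes they used Affymetrix Expression Console. For background correction and normalization, no method was given in the sources used here. That the scale is log2 was inferred from its range of 2.25 to 14.2.

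The table has 33297 rows. By the platform annotation 19460 rows name 1 gene and 1754 name several, and 12083 are unnamed here. Symbols were updated by gene identifier through RefSeq (GRCh38.p14), where 19429 were found and 31 were not. Sites and rounds came from the sample titles. limma 3.58.1 in R 4.3.3 (lmFit, eBayes, two-sided, Benjamini-Hochberg) was fitted on all 14547 tested genes and 4 arrays. The round is shared by both sites, per the titles. Deviations from the site means had a correlation of 0.411 across genes for same-round arrays, so fits with a replicate block were run too. The 2 same-round pairs mirror each other, because each site has 2 arrays, and so give 1 value. For deviations from the round means, the correlation between arrays of the same site was 0.101.

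Every member is named. From each further list, the 3 tested genes furthest apart between sites and between rounds are named (the rule as fixed ranked measured genes, but those under the signal minimum were left out of the ranking), and for the member with the widest range the 3 nearest profiles; VSIG1, CTSE and ANXA10 and other list genes under the minimum are named as such, and so are genes that mark a list. Members and lists were chosen with earlier results of these data known. On simulated data for ovary minus stomach with 200 changed genes among 14547, limma recovered 22.4% at a 2-fold and 93.7% at a 4-fold change, with means of 2.6 and 9.9 false calls. Noise was drawn independently for each array with no round effect, unlike the data. Both changes exceed the largest site difference of a tested member (LYZ, 1.47-fold), so recovery at the members' differences was not measured. The alternatives were other signal minimums, normalizations, probe set choices, priors, an adjusted p threshold of 0.10, the block, and leaving out each array.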

Additional observations from a re-analysis of the deposited data

How the results depend on the processing

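No gene was called between sites, between rounds or for the interaction under the alternatives listed above, of which the block was run for sites and rounds only, nor between sites with the round 2 samples exchanged, an alternative chosen after seeing the data. With the replicate block, 0 genes were called between sites (smallest adjusted p = 0.122) and 0 between rounds (0.133), so the block changed no call. At an unadjusted p under 0.05 limma found 916 genes between sites with the block, against 378 without it, and 623 without the round 2 ovary array. For the rounds the count without 1 array was 1376 to 1837, against 2178, and for the interaction 338 to 546, against 194, with 293 without a signal minimum and 127 at the 50th percentile. The 2178 genes split into 1111 higher and 1067 lower in round 2, but 1398 and 814 after median centring and 907 and 1190 after quantile normalization. Of the members' differences, 178 of 183 values kept their direction under alternatives that keep all arrays. Most of these could not have turned. Each member has 1 probe set, and the signal minimums, priors, threshold and block alter the test but not the difference. Only median centring, quantile normalization and the exchange of the round 2 samples could turn a value. The exceptions were the GATA6 interaction after quantile normalization (0.0062) and, with the round 2 samples exchanged, the site differences of CLDN18 (0.10), GATA6 (0.018), PSCA (0.042) and SOX2 (-0.17). Leaving out 1 array turned 18 of 72. Without round 2 ovary these were the site differences of CLDN18 (0.071), GATA6 (0.048) and SOX2 (-0.0020), the interactions of CLDN18 (0.047), GATA4 (0.10), GATA6 (0.054), PSCA (0.071) and SOX2 (-0.016), and the round difference of LYZ (-0.0054). Without round 1 ovary they were the site difference of GATA4 (-0.16), the interactions of GATA4 (0.14) and GATA6 (0.032), and the round differences of LYZ (-0.56) and PSCA (-0.0026). Without round 2 stomach they were the site difference of GATA4 (-0.11), the interaction of PSCA (0.25) and its round difference (-0.045), and without round 1 stomach the site difference of GATA6 (0.030). The cause was not tested. Over the arrays left out, the site differences ranged from -0.25 to 0.071 (CLDN18), -0.16 to 0.24 (GATA4), -0.091 to 0.048 (GATA6) and -0.0020 to 0.36 (SOX2). The round differences ranged from -0.56 to 0.74 (LYZ) and -0.045 to 0.40 (PSCA). The interactions ranged from -0.26 to 0.047 (CLDN18), -0.24 to 0.14 (GATA4), -0.090 to 0.054 (GATA6), -0.33 to 0.25 (PSCA) and -0.016 to 0.36 (SOX2). The round differences of GATA4, GATA6, CLDN18 and SOX2 and the site differences of PSCA and LYZ kept their direction without any 1 array. Signals under the minimum of 5.64 limit what can be read of VSIG1, CTSE and ANXA10.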

Other observations

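Markers of lineages next to the stomach were also measured. Of 17 intestinal genes, 15 had a row and 14 were tested, with 11 lower in ovary (median -0.056) and 9 lower in round 2 (median -0.056), and none passed limma's test in either comparison. REG4, a secreted lectin, differed by -0.38 ± 0.32 between sites and 0.66 ± 0.19 between rounds, the intestinal cadherin CDH17 by 0.41 ± 0.18 between rounds, and GPA33, a surface antigen of intestinal epithelium, by -0.41 ± 0.19 between sites. The keratin KRT20 differed by 0.97 ± 0.36 between sites and -0.71 ± 0.47 between rounds. Of 8 squamous foregut markers, 6 had a row and 5 were tested. Of these 5, 4 were lower in ovary (median -0.10) and 3 lower in round 2 (median -0.23). KRT14, a keratin of basal squamous cells, led with -0.48 ± 0.12 between rounds. IVL, a precursor of the cornified envelope, differed between rounds by -0.28 ± 0.092, and the keratin KRT13 by -0.23 ± 0.13. Between sites KRT14 differed by -0.18 ± 0.24, KRT13 by -0.13 ± 0.17 and the keratin KRT15 by -0.10 ± 0.11.

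Markers of fibroblasts and endothelium were read too, and none passed limma's test. Cells of the host would be mouse cells, so these human probe sets would read them only where mouse RNA binds. Of 10 fibroblast genes, 5 (DCN, LUM, PDGFRA, COL6A3 and POSTN) had a mean under the signal minimum. Of the 5 tested, 4 were lower in ovary and 5 lower in round 2, with medians of -0.076 and -0.087. PDGFRB, a growth factor receptor of mesenchymal cells, differed by -0.31 ± 0.21 between sites and -0.40 ± 0.17 between rounds. The collagen gene COL3A1 differed by -0.13 ± 0.13 between sites and -0.19 ± 0.10 between rounds, and THY1, a surface glycoprotein, by -0.076 ± 0.096 and -0.087 ± 0.079. Of 7 endothelial genes, 3 (PECAM1, KDR and TEK) had a mean under the signal minimum. Of the 4 tested, 4 were lower in ovary (median -0.091) and 3 lower in round 2 (median -0.062). CLDN5, a tight junction protein of endothelium, differed by -0.13 ± 0.15 between sites and -0.22 ± 0.11 between rounds, and VWF, a clotting protein of endothelium, by -0.057 ± 0.096 and -0.068 ± 0.080. ESAM, an endothelial adhesion molecule, was higher in round 2 by 0.83 in the ovary lineage and 1.12 in the stomach lineage, and did not pass the test (limma adjusted p = 0.287).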
